A study of Saccharomyces cerevisiae with 96 samples.

Results

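The early response of the Nmd- strain to a block of transcription, early by labelled time, was taken as a difference between arrays. Those titled 6, 8 and 10 min after thiolutin were set against those titled 0 and 2 min. The 14 arrays were chosen by strain and time in their titles, and they are 14 of the 96 arrays of the series, 6 at 0 and 2 min and 8 at 6 to 10 min. Each strain was followed in 3 independent time courses (courses 1 to 3) of 16 times, with 1 array for each time. The Nmd+ strain was S288C, which carries *UPF1*, and the Nmd- strain was YRZ1, an S288C derivative in which *upf1*Δ::KanMX4 replaces the gene. Both are *MATα* haploids, were grown to mid-log phase, and received thiolutin at 10 µg/ml at the 5 times used. YRZ1 is a single isolate, so the loss of *UPF1* and any other difference of that isolate from S288C cannot be told apart. The array titled Nmd- 10 min of course 1 was left out, because its *UPF1* signal (log2 5.89) and KanMX4 signal (log2 5.35) were those of the other strain. In the 14 arrays used, *UPF1* lay between 2.30 and 3.81 and KanMX4 between 11.65 and 12.54. In the 15 Nmd+ arrays of the same times, *UPF1* lay between 5.80 and 7.44 and KanMX4 between 3.54 and 6.26, with no overlap between strains for either.

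Nonsense-mediated mRNA decay (NMD) removes transcripts on which translation ends prematurely, and the helicase Upf1 is required for it. Thiolutin inhibits RNA synthesis and is used to follow the decay of existing transcripts, since without new synthesis a short-lived mRNA disappears first. It is also a compound that binds metals and stresses the cell, and yeast under stress commonly turns on heat shock and general stress genes (through Hsf1, Msn2 and Msn4) while the mRNAs for building ribosomes decline. On arrays normalized to a common overall level, as here, a transcript that is lost more slowly than the average rises in relative terms. A change below is therefore relative to the average RNA of the same array. In such bulk samples, fewer cells and less RNA per cell cannot be told apart.

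In the 14 arrays, 4 genes that mark α cells lay between log2 7.11 and 11.8, and 6 that mark **a** cells between 2.70 and 7.24. Levels of different probe sets have no common scale and both strains share the mating type, so the *MATα* label was not tested by these values. Scan times split the series into 3 periods. Among the 14 arrays, the 0 min array of course 1 and the 6 min array of course 2 were scanned in a different period from the others of their course, and those of course 3 were scanned in a single period.

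The 14 arrays did not line up by labelled time. An array index was taken as the mean log2 signal of the 200 probe sets that fell most in the Nmd+ strain by 45 to 60 min minus that of the 200 that rose most, so that it drops as the response goes on. The reference for both was the Nmd+ arrays at 0 and 2 min. In the Nmd- courses 1, 2 and 3 it was 1.57, 2.49 and 2.39 at 0 min, and at 2 min it was -0.38, 1.81 and 0.74. At 6 min it was -3.17, -0.17 and -1.74, and the 10 min arrays of courses 2 and 3 gave -1.97 and -2.33. The 8 min arrays gave 1.04, 2.55 and 1.93. All 3 of the 8 min arrays therefore lay above the 2 min array of their own course and far above its 6 and 10 min arrays. In the Nmd+ strain the 8 min array lay between those of 6 and 10 min in each course, for example 0.77, 0.37 and -0.19 at 6, 8 and 10 min in course 1. Arrays outside the comparison were out of label order too. In each Nmd- course the arrays titled 4, 12 and 20 min lay above the 2 min array (0.27, 2.10 and 1.30 at 20 min). The 6 and 10 min arrays lay below the array titled 35 min (-2.71, 0.62 and -1.62). In each Nmd+ course the index fell at every labelled time from 4 to 35 min. The reason for this was not tested.

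**Figure D1:**
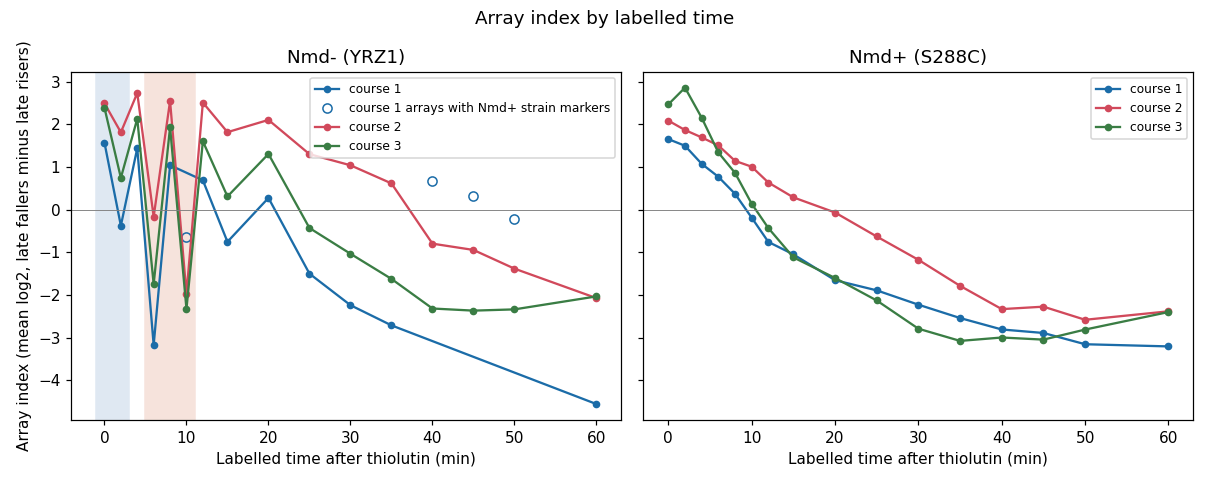
Array index (mean log2 signal of late fallers minus late risers, defined on the Nmd+ arrays) against labelled time in minutes, 1 line for each course, with the 0 and 2 min arrays shaded blue and the 6 to 10 min arrays shaded red. In the Nmd- panel the index swings between the 6, 8 and 10 min arrays in every course, and the open circles are course 1 arrays with the strain markers of the Nmd+ strain.

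Counts of probe sets showed the same division in courses 2 and 3. Against the 0 min array of their course, 246 probe sets were at least 2-fold higher and 54 lower at 8 min in course 2, and 221 were higher and 17 lower in course 3. At 6 min the numbers were 979 higher and 760 lower in course 2, and 955 and 871 in course 3. At 10 min they were 1049 and 1057, and 919 and 884. Course 1 differed, with 802 higher and 290 lower at 8 min and 789 and 925 at 6 min, so that the higher probe sets were as many at 8 min as at 6 min. At 2 min the numbers were 1482 and 980 in course 1, 437 and 217 in course 2, and 253 and 202 in course 3. The 0 min array of course 1 was scanned in another period than its 2, 6 and 8 min arrays. The part of this in the counts was not tested. With each probe set centred on its course, the 8 min array of course 3 was closest to the 0 min array (r = 0.77 across probe sets, which are not independent), while its 10 min array correlated with the 0 min array at -0.49. The 6 and 10 min arrays were in 4 of 5 cases closest to arrays titled with much later times of their own course. The 6 min array of course 1 was closest to the array titled 35 min (r = 0.73), and the 10 min arrays of courses 2 and 3 were closest to those titled 45 min (r = 0.72 and 0.60). At 6 min the closest were the arrays titled 25 min in course 2 (r = 0.43) and 10 min in course 3 (r = 0.50). The 2 min arrays of courses 1 and 2 were closest to those titled 20 min (r = 0.68 and 0.57). That of course 3 was closest to its 0 min array (r = 0.58). In the Nmd+ strain the 6, 8 and 10 min arrays were closest to arrays titled 0 to 8 min. The labelled times could not be checked against another record, so it is not settled that the Nmd- arrays were sampled at the times in their titles, and the cause of the division was not tested. All times here are labelled times, and any Nmd- value at a given time, or a strain difference at the same labelled time, carries this doubt. Results are given with and without the 8 min arrays.

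With all 14 arrays in a limma fit with the course as a block, 0 of 9275 probe sets passed (adjusted p under 0.05 and at least 1.5-fold), which is 0.0% in each direction. The smallest adjusted p was 0.409, and 1096 probe sets had an unadjusted p under 0.05, of which 437 were higher and 659 lower. That fit treats the 6, 8 and 10 min arrays as repeats of a single phase. When each course was first reduced to a single difference between its phase means, so that n = 3, 425 probe sets were higher (4.58%) and 531 lower (5.73%) in limma. Without the 8 min arrays, the fit across the remaining 11 arrays called 700 higher (7.55%) and 838 lower (9.04%). Both tests called 280 higher probe sets, which is 65.9% of the course calls and 40.0% of the calls without 8 min, and 483 lower ones (91.0% and 57.6%). The 8 min arrays alone against 0 and 2 min gave 0 calls in each direction (0.0%), with 444 probe sets at an unadjusted p under 0.05. Against 6 and 10 min, 774 probe sets were higher at 8 min (8.35%) and 739 lower (7.97%). Only 2 probe sets were higher and 2 lower with no overlap between phases over all 14 arrays (0.0216% each). Without 8 min these were 212 (2.29%) and 251 (2.71%). A change of at least 1.5-fold in each of the 3 courses was seen for 227 higher (2.45%) and 266 lower probe sets (2.87%).

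Below, a gene that "rose" or "fell" passed the test on the course differences, which includes the 8 min arrays, or the fit without 8 min where that fit is named. None of the genes passed in the 14-array fit. The size is mostly the log2 change of 6 and 10 min against 0 and 2 min, with the standard error of the fit. The 8 min arrays were left out there because their values differed, so that an average with them joins unlike arrays. The sizes, standard errors and adjusted p-values without 8 min thus rest on arrays kept for their values. They describe the 6 and 10 min arrays and are no independent test of the response. Leaving out 0, 2, 6 or 10 min in turn gave 0 calls in each direction. In course 1 the late mean of the course test rests on 6 and 8 min. Counts in gene lists stand beside shares over all probe sets of 4.58% higher and 5.73% lower by the course differences. Without 8 min these shares are 7.55% and 9.04%. No list was tested, and a list count near these shares says nothing about the list.

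Genes for protein folding rose. *SSA4*, which encodes a stress-induced cytosolic Hsp70, gave log2 signals of 9.41, 8.49 and 8.28 at 0 min and 9.48, 8.36 and 8.52 at 2 min in courses 1, 2 and 3. At 6 min it gave 12.02, 11.27 and 11.04, and at 10 min 11.86 and 11.40 in courses 2 and 3. At 8 min it gave 8.92, 8.52 and 8.21. The 6 and 10 min arrays thus lay entirely above the others, and the 8 min arrays lay within or just below the range of 0 and 2 min. The 14-array log2 change of *SSA4* was 1.69 (SE 0.64, adjusted p = 0.409), the course differences gave an adjusted p of 0.00654, and without 8 min the change was 2.88 (SE 0.17, adjusted p = 4.11e-05), or 7.36-fold. *STI1*, a cochaperone of Hsp70 and Hsp90, rose 3.23-fold without 8 min (log2 1.69, SE 0.20, adjusted p = 0.0016). Of 31 probe sets of cytosolic heat shock and chaperone genes, 14 rose by the course differences and 20 without 8 min, and 0 fell. Their median log2 change was 0.46 over the 14 arrays, 1.04 without 8 min and -0.27 at 8 min alone, where the medians over all probe sets were 0.01, 0.01 and 0.00.

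In the other compartments the list median was smaller, at 0.58 without 8 min. Of 25 probe sets for mitochondrial and endoplasmic reticulum chaperones, 4 rose by the course differences and 8 without 8 min. *HSP78*, for a mitochondrial disaggregase, rose 4.21-fold without 8 min (log2 2.07, SE 0.32), and *ERO1*, for the oxidase that supports disulfide formation in the endoplasmic reticulum, rose 4.46-fold (log2 2.16, SE 0.27). *SSC1*, the mitochondrial Hsp70, rose 2.09-fold (log2 1.06, SE 0.29), and its lowest array was the 0 min array of course 1 at 7.48. *HSP30*, which encodes a stress protein of the plasma membrane, was also higher at 2 min, with 10.52, 8.39 and 9.41 against 6.84, 5.28 and 4.91 at 0 min. It reached 12.29, 11.36 and 11.34 at 6 min but was 7.14, 4.71 and 5.87 at 8 min. Proteasome genes, which Rpn4 controls, had a median of 0.59 without 8 min, and 18 of 47 probe sets rose there against 1 by the course differences. *PRE2*, a catalytic subunit, was one of the 18 (1.64-fold, log2 0.71, SE 0.16).

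The general stress genes of Msn2 and Msn4 had the highest list median. Of 53 probe sets, 34 rose by the course differences and 45 without 8 min, and 0 fell in either. The list median against the 0 and 2 min mean of the same course was 1.29, 0.99 and 1.63 in the 6 min arrays, and 1.94 and 1.82 in the 10 min arrays. In the 8 min arrays it was -0.17, -0.29 and -0.26. Every 6 and 10 min array thus stood high and every 8 min array stood slightly below its own start.

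*HSP26*, a small heat shock protein gene of this list, differed among courses before thiolutin could act, with 8.95, 5.71 and 7.19 at 0 min. Its 6 and 10 min arrays lay between 10.25 and 11.67, and at 8 min it was 9.26, 5.60 and 7.27. The courses thus began far apart and were closer to each other at 6 and 10 min. The rise without 8 min was 11.3-fold (log2 3.50, SE 0.50, adjusted p = 0.00245). *HSP12*, for a membrane-associated stress protein, rose 4.83-fold without 8 min (log2 2.27, SE 0.34), and its course 2 array at 8 min (8.04) was lower than any other of the late arrays (10.76 to 12.74). *SPG4*, a gene expressed in stationary phase, rose 13.6-fold (log2 3.77, SE 0.44). *PRX1*, for the mitochondrial peroxiredoxin, rose 3.53-fold (log2 1.82, SE 0.23). *PNC1*, for the nicotinamidase of the NAD salvage pathway, rose 2.84-fold (log2 1.51, SE 0.22). *SIP18* and *GRE1*, 2 genes known from osmotic stress, rose 4.28-fold and 10.7-fold. *GRE1* was uneven among courses, with 9.25, 4.82 and 7.52 at 6 min.

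**Figure D2:**
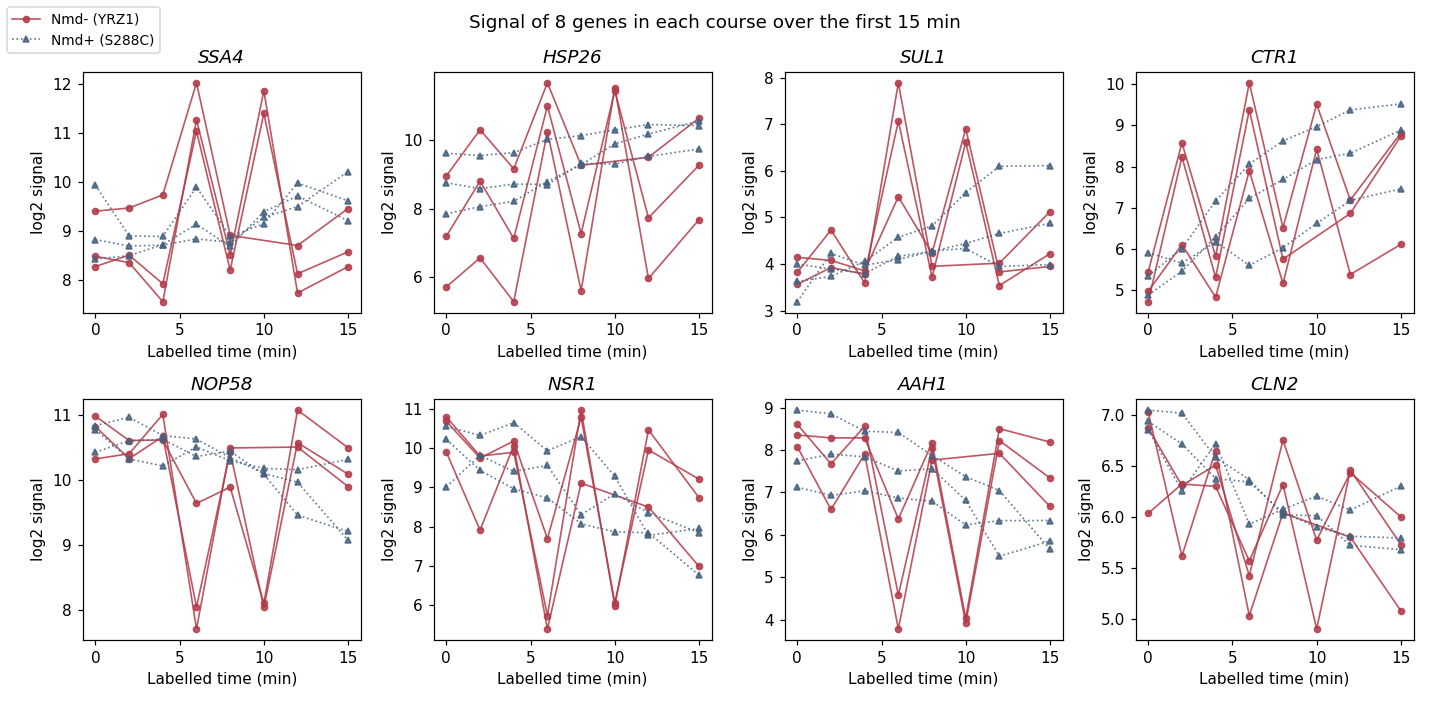
Log2 signal of 8 genes against labelled time (0 to 15 min), 1 line for each course, Nmd- as red circles and Nmd+ as blue triangles, with the Nmd- 10 min array of course 1 left out. The red lines of *SSA4* and *HSP26* peak at 6 and 10 min and return at 4, 8 and 12 min, and those of *NOP58*, *NSR1* and *AAH1* mirror them. The blue lines of these genes swing less, though that of *SSA4* in course 1 also dips (9.90, 8.90 and 9.15 at 6, 8 and 10 min).

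The arrays titled 4, 12 and 15 min entered no test. *SSA4* had a mean of 8.41 ± 1.16 (SD, n = 3) at 4 min, 8.20 ± 0.49 at 12 min and 8.78 ± 0.62 at 15 min, against 11.44 ± 0.52 at 6 min and 11.63 ± 0.33 (n = 2) at 10 min. *SSA4* at these times thus stood near its 0 min level, whereas *HSP26* at 15 min (9.19 ± 1.48) lay between its means at 0 min (7.28 ± 1.62) and 6 min (10.97 ± 0.71). For the 4 min arrays the labels give thiolutin at 14 µg/ml.

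Oxidant defence genes of Yap1 and Skn7 rose in smaller number, 10 of 46 probe sets by the course differences and 17 without 8 min, with 1 lower in each. *ECM4*, for a glutathione transferase, rose 4.07-fold without 8 min (log2 2.02, SE 0.27). *GPX1* and *GRX2*, a glutathione peroxidase and a glutaredoxin, rose 2.00-fold and 2.12-fold. The single gene that fell was *FLR1*, for a drug exporter of the plasma membrane, at -0.93 (SE 0.18, adjusted p = 0.00681). *ADH7*, for an alcohol dehydrogenase that uses NADPH, rose 14.5-fold (log2 3.86, SE 0.54), from 5.42 to 7.08 at 0 and 2 min to 7.32, 9.19 and 11.19 at 6 min and 10.04 and 12.08 at 10 min. Its level at 6 min thus differed widely among courses. Of 36 probe sets of drug transport genes under Pdr1 and Pdr3, 4 rose and 1 fell by the course differences.

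Sulfate assimilation genes, which Met4 controls and which supply methionine and cysteine, formed the list with the next highest median (0.64 over the 14 arrays, 1.18 without 8 min). Of 27 probe sets, 13 rose by the course differences and 11 without 8 min. *SUL1*, the high-affinity sulfate permease, gave 3.82, 4.14 and 3.56 at 0 min and 4.73, 4.07 and 3.92 at 2 min. It gave 7.89, 5.44 and 7.07 at 6 min, 6.90 and 6.61 at 10 min, and 3.95, 4.23 and 3.72 at 8 min. The late arrays other than 8 min lay above all others, and the rise was 7.16-fold without 8 min (log2 2.84, SE 0.33, adjusted p = 0.0014). *MET16*, the PAPS reductase gene, rose 4.66-fold (log2 2.22, SE 0.31), *MET10*, for a subunit of sulfite reductase, 2.71-fold (log2 1.44, SE 0.26) and *MET22*, for the phosphatase that clears the by-product PAP, 2.54-fold (log2 1.34, SE 0.17).

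Some metal genes changed. Of 29 probe sets of the iron regulon of Aft1 and Aft2, 6 rose by the course differences, and 8 rose and 1 fell without 8 min. Their median log2 change was 0.45 without 8 min. In the Nmd+ fit of 6, 8 and 10 against 0 and 2 min, 11 of the 29 were higher. *FIT2*, for a cell wall mannoprotein that retains siderophore iron, was 5.44, 5.37 and 6.00 at 8 min but 9.27, 9.17 and 10.31 at 6 min, and rose 12.5-fold without 8 min (log2 3.64, SE 0.32). *TIS11*, for the protein that degrades mRNAs of iron-dependent pathways, and *CTR1*, the high-affinity copper transporter, differed from it in being high in the 2 min arrays too. *CTR1* gave 4.71, 4.96 and 5.44 at 0 min, 8.23, 6.10 and 8.57 at 2 min, 9.38, 7.90 and 10.04 at 6 min and 5.74, 5.15 and 6.51 at 8 min. It thus stood in the order 0, 8, 2 and 6 min in each course, and the change without 8 min was 2.75 (SE 0.66, adjusted p = 0.0181). In the zinc regulon of Zap1, 3 of 25 probe sets rose and 2 fell by the course differences, and *ATG41*, an autophagy gene, rose by them (log2 1.48, SE 0.14) but did not pass without 8 min (1.97, SE 0.74, adjusted p = 0.092).

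Some genes of carbon metabolism rose. *SUC2*, the invertase that glucose represses, went from 5.91 to 7.15 at 0 and 2 min to 9.05, 8.62 and 9.28 at 6 min and 10.00 and 8.85 at 10 min, with 6.48, 6.56 and 6.88 at 8 min. It rose 5.52-fold without 8 min (log2 2.46, SE 0.27), and a second probe set for it rose 6.38-fold. *HXT5*, a hexose transporter made in slow growth, rose 9.59-fold (log2 3.26, SE 0.33). *RGI1*, a gene of respiratory growth, rose 9.77-fold (log2 3.29, SE 0.83), though its 2 min arrays in courses 1 and 3 (9.46 and 9.91) stood near its 6 min arrays (10.63 and 10.48). Of 24 probe sets of glycolytic and fermentation genes, 0 passed by the course differences and 2 rose without 8 min, and of 41 of the respiratory chain 2 and 9 rose.

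Most probe sets of ribosome biogenesis genes fell. Of 149, 121 fell by the course differences and 127 without 8 min, 0 rose, and 89 were at least 1.5-fold lower in each of the 3 courses. The list median was -0.98 over the 14 arrays, -1.68 without 8 min and 0.08 at 8 min alone. By array it was -1.83, -0.87 and -1.82 at 6 min, -1.81 and -1.90 at 10 min, and 0.09, 0.06 and 0.12 at 8 min. The 6 min array of course 2, which was scanned in another period than its course, stood out as the least changed.

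*NOP58*, a core protein of the box C/D ribonucleoproteins that methylate ribosomal RNA, gave 10.32, 10.98 and 10.82 at 0 min and 10.40, 10.60 and 10.32 at 2 min. It gave 7.71, 9.64 and 8.04 at 6 min, 8.10 and 8.04 at 10 min, and 10.49, 9.89 and 10.43 at 8 min. The 6 and 10 min arrays did not overlap with 0 and 2 min, and the change without 8 min was -2.33 (SE 0.27, adjusted p = 0.0014). Its partner *NOP56* fell by 2.43 (SE 0.32). *NSR1*, a nucleolar protein of the nucleolin type, had the lowest change among the biogenesis genes named here at -3.79 (SE 0.43, adjusted p = 0.0014), from 9.90, 10.68 and 10.79 at 0 min to 5.40, 7.69 and 5.74 at 6 min. At 2 min it was 7.91, 9.74 and 9.80, so it was lower than at 0 min in each course, and at 8 min it was back at 9.11, 10.78 and 10.97. *DBP3*, a helicase of the large subunit pathway, and *NIP7*, a factor for 60S assembly, changed by -2.85 (SE 0.35) and -2.84 (SE 0.32). *EBP2*, also of the 60S pathway, fell by 2.38 (SE 0.30), and *LTV1*, for export of the 40S subunit, by 1.27 (SE 0.23).

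**Figure D3:**
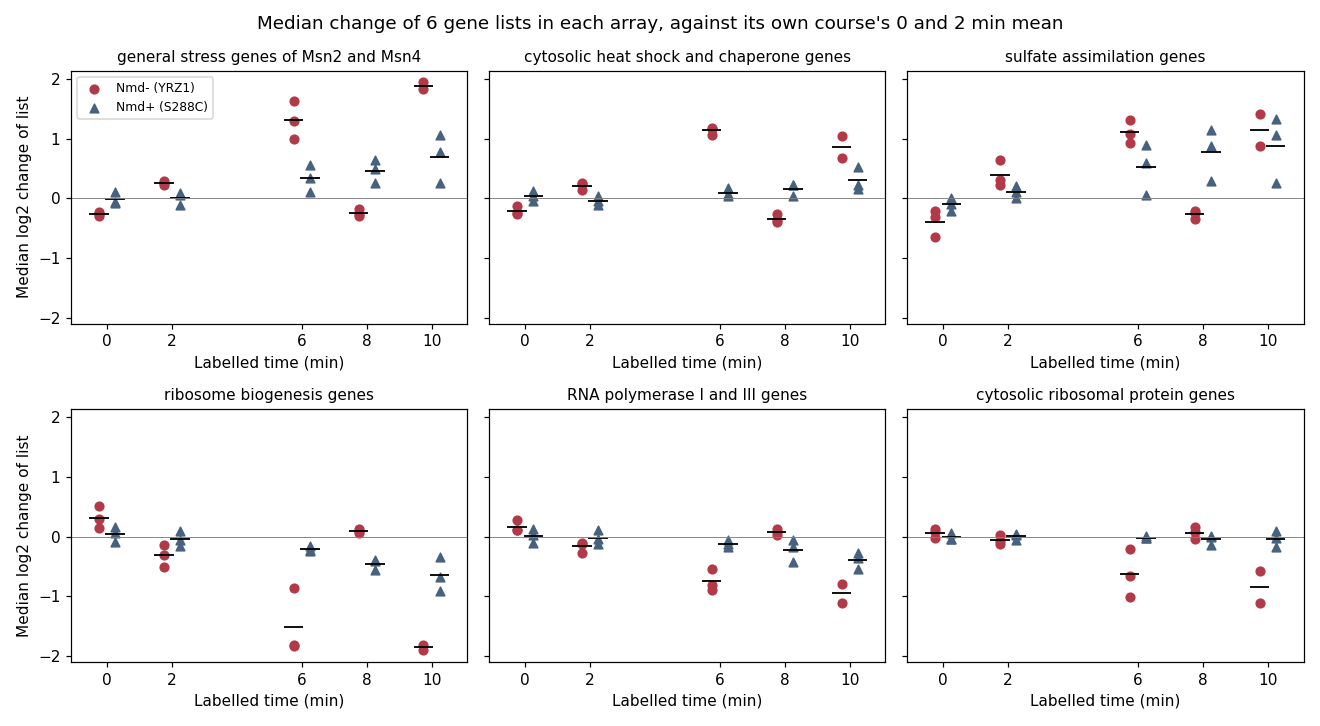
Median log2 change of 6 gene lists in each array against the mean of the 0 and 2 min arrays of its own course, by labelled time, Nmd- as red circles, Nmd+ as blue triangles and bars for the mean of the arrays shown. In the Nmd- strain the ribosome biogenesis medians are -1.83 to -0.87 at 6 min and 0.06 to 0.12 at 8 min.

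Subunits of RNA polymerases I and III, which make ribosomal and transfer RNA, fell in 21 of 51 probe sets by the course differences and 24 without 8 min, and 0 rose. *RPC25* and *RPC82*, both of polymerase III, changed by -1.75 (SE 0.27) and -1.52 (SE 0.27) without 8 min, and *RPA43*, of polymerase I, by -1.68 (SE 0.28). Of 106 probe sets of cytosolic ribosomal protein genes, 31 fell by the course differences and 59 without 8 min, with 0 higher. Their median change was smaller, at -0.73 without 8 min against -1.68 for the biogenesis genes. *RPL6B* went from 12.05 to 12.57 at 0 and 2 min to 10.17, 12.11 and 11.66 at 6 min and 10.81 and 10.88 at 10 min (log2 -1.31, SE 0.26). Course 1 moved furthest and course 2 least at 6 min. *RPS29A* changed by -0.97 (SE 0.19). Many ribosomal proteins have a near-identical copy that can share probes, so copies of a pair cannot be told apart with confidence. The mitochondrial ribosomal proteins did not follow, with 1 of 74 probe sets higher and 0 lower by the course differences, *MRPL38* at 0.74 (SE 0.16) without 8 min.

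Among translation factors and tRNA synthetases, 12 of 51 probe sets fell by the course differences and 20 without 8 min, and 0 rose. *TIF4631*, for the scaffold eIF4G, went from 6.15 to 8.08 at 0 and 2 min to 4.97 to 6.46 at 6 min and 5.45 and 5.69 at 10 min (log2 -1.82, SE 0.25). *TIF35*, of eIF3, changed by -1.18 (SE 0.27). *SUP35* encodes the release factor eRF3 and *SUP45* encodes eRF1, which recognizes stop codons, and both contact Upf1. *SUP45* changed by -0.84 (SE 0.16) without 8 min and *SUP35* by -0.81 (SE 0.25), and *SUP35* also fell by the course differences. Unlike most genes here, *SUP35* was also lower at 8 min, at 7.52, 7.73 and 8.52 against 7.81 to 8.93 at 0 and 2 min.

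Some purine genes fell. Of 39 probe sets of purine and pyrimidine synthesis, 12 fell by the course differences, and 14 fell and 2 rose without 8 min. *AAH1*, the adenine deaminase, gave 8.08, 8.35 and 8.60 at 0 min, 3.78, 6.37 and 4.58 at 6 min and 4.03 and 3.92 at 10 min, and 7.76, 8.17 and 8.04 at 8 min. Its change without 8 min was -3.52 (SE 0.43, adjusted p = 0.00161). *IMD4*, an IMP dehydrogenase of guanine nucleotide synthesis, changed by -2.17 (SE 0.37) and *APT1*, an adenine phosphoribosyltransferase, by -1.75 (SE 0.32). A second probe set for *IMD4* changed by -1.58 without 8 min. Of 47 probe sets of amino acid synthesis genes of Gcn4, 7 fell and 1 rose by the course differences, with *ILV1* at -1.05 (SE 0.23) and *HIS1* at -1.06 (SE 0.22). In ergosterol synthesis 3 of 31 fell by the course differences, where 5.73% of all probe sets did. Among them was *CYB5*, cytochrome b5 (log2 -1.73, SE 0.33), which was at 5.57, 6.67 and 6.86 at 2 min against 7.38, 7.41 and 7.88 at 0 min. *FAS1*, the fatty acid synthase gene, was unusual in being lowest at 8 min in each of courses 1 and 2 (8.32 and 7.89). Its signal fell by log2 0.77 by the course differences (SE 0.15, adjusted p = 0.021), and without 8 min it did not pass (-0.56, SE 0.30, adjusted p = 0.232). Further probe sets for *FAS1* changed by -0.71 and -0.46 without 8 min.

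The cell cycle lists had medians of -0.53 (cyclins and G1 regulators) and -0.17 (replication) without 8 min. Of 35 probe sets of cyclin and G1 regulator genes, 5 fell by the course differences (14-array median -0.26) and 8 without 8 min. *CLN2*, a G1 cyclin with a short-lived mRNA, was 7.03, 6.04 and 6.87 at 0 min, 5.03, 5.57 and 5.42 at 6 min and 6.04, 6.32 and 6.76 at 8 min, a change of -1.05 (SE 0.26, adjusted p = 0.0201) without 8 min. *TOS4*, a transcription factor of G1, and *PCL2*, a cyclin of Pho85, each changed by -0.90 (SE 0.18 and 0.17). Of 55 probe sets of replication genes of MBF, 5 fell by the course differences, where 5.73% of all probe sets did. Among them were *CDC45* (-1.12, SE 0.21) and *POL1*, the catalytic subunit of polymerase alpha (-1.05, SE 0.27). *POL1* was low at 2 min in course 1 only (5.32 against 6.38 to 6.91 in the other early arrays).

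**Figure D4:**
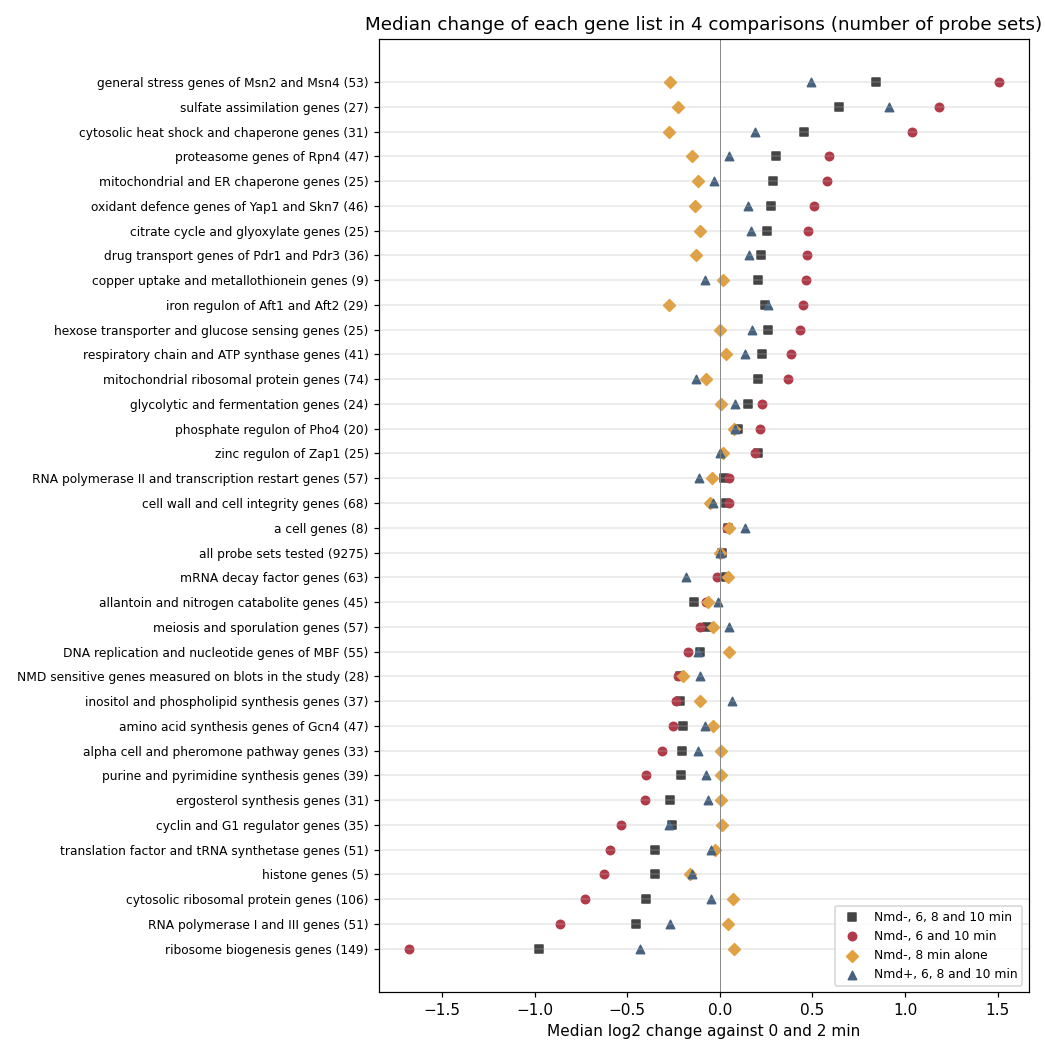
Median log2 change against 0 and 2 min for each gene list and for all probe sets, with the number of probe sets in brackets, in 4 comparisons. General stress and sulfate genes lie at the positive end and ribosome biogenesis genes at the negative end (-1.68 without 8 min), and the 8 min arrays alone stay between -0.28 and 0.08.

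The mRNA decay machinery as a list did not shift, with 3 of 63 probe sets higher and 2 lower by the course differences and a median of 0.04. *DCP2*, the decapping enzyme, rose in the fit without 8 min (0.66, SE 0.19, adjusted p = 0.037). *RRP6* and *MTR3*, of the nuclear exosome and the exosome ring, fell, with changes of -1.12 (SE 0.20) and -1.46 (SE 0.22) without 8 min. *DCS1*, for the scavenger enzyme that breaks down the cap left after decay and also a gene of the general stress list, rose 3.22-fold. *NMD2*, which encodes Upf2, the direct partner of Upf1, was 7.68, 7.12 and 7.33 at 0 min and 6.33 to 6.94 at 6 and 10 min, a change that did not pass (-0.41, SE 0.20, adjusted p = 0.186 without 8 min). The KanMX4 marker itself lay at 12.26 to 12.54 at 0 and 2 min and 11.65 to 12.11 at 6 and 10 min (log2 -0.51, SE 0.14, adjusted p = 0.0305), a change under 1.5-fold.

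A list of 26 genes drawn up from the study as sensitive to NMD made up 28 probe sets. Not every member was followed on blots there, and for *EBS1* the study cites earlier work. Of these, 2 fell by the course differences and 0 rose, and without 8 min 5 fell and 2 rose. Over all probe sets 5.73% fell and 4.58% rose by the course differences, and 9.04% fell and 7.55% rose without 8 min. Their median was -0.22 over the 14 arrays, -0.22 without 8 min and -0.20 at 8 min alone, so it hardly depended on the 8 min arrays. The study selected NMD-sensitive genes on samples of this kind, so the list is not independent evidence of a direction. *SAS2*, a subunit of a histone acetyltransferase, was 5.92, 6.11 and 6.27 at 0 min and 4.75, 4.99 and 4.84 at 6 min (log2 -1.14, SE 0.20, adjusted p = 0.00517 without 8 min). *SGF11*, of the SAGA complex, changed by -0.90 (SE 0.18). In the study's conventional half-life experiments neither *SAS2* nor *SGF11* mRNA differed significantly between strains, and both were classed as indirect targets. The study's global array experiment had predicted *SAS2* as indirect but *SGF11* as direct, and *SGF11* was then counted as a false discovery. *EBS1*, a gene with similarity to *EST1*, had a mean of 8.36 ± 0.16 (SD, n = 3) at 0 min, 8.09 ± 0.61 at 6 min and 8.18 ± 0.50 at 8 min, and its change did not pass (-0.53, SE 0.20, adjusted p = 0.0933).

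Of 33 probe sets for α cell and pheromone pathway genes, 1 fell by the course differences, and 8 fell and 1 rose without 8 min. *STE3*, the receptor for **a**-factor, was the one that fell in both (log2 -1.07, SE 0.21, without 8 min). None of 8 probe sets of **a** cell genes passed in either test. *SPS100*, a late sporulation gene, was the one that rose by the course differences among 57 probe sets of meiosis and sporulation (log2 2.74, SE 0.43, without 8 min), and it gave 9.58, 6.45 and 7.29 at 6 min against 5.04 to 5.96 at 0 and 2 min.

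Some probe sets differed between the arrays titled 2 and 0 min. Whether this is an early stage was not settled, since the order of the Nmd- arrays is in doubt. In limma 8 probe sets were higher at 2 than at 0 min (0.0863%) and 1 lower (0.0108%), and these 9 genes were picked out once their values were known. *MET2*, of methionine synthesis, rose 14.8-fold (log2 3.89, SE 0.32, adjusted p = 0.0164), from 6.16, 6.03 and 6.21 to 10.47, 9.05 and 10.54. *TIS11* rose 14.0-fold, from 3.01, 3.09 and 2.98 to 7.26, 6.05 and 7.19, and *HSP30* rose 13.6-fold. In the 4 min arrays, which entered no test, the means were 3.48 ± 0.43 (SD) for *TIS11* and 5.30 ± 0.84 for *HSP30*. At 0 min they were 3.03 ± 0.06 and 5.68 ± 1.02. The other risers were *ISF1*, *ROQ1*, *ATG41*, *SAM3*, the S-adenosylmethionine permease, and *APJ1*, a chaperone of the DnaJ type, at 4.55-fold to 10.1-fold. *AQR1*, for an exporter of the plasma membrane, fell from 6.72, 6.51 and 6.32 to 4.02, 3.97 and 3.87. At 8 min *MET2* was 9.11, 6.51 and 9.10, below the 2 min array of each course, and *AQR1* was 4.69, 5.77 and 5.37, between its 0 and 2 min levels.

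Of the 4 probe sets with no overlap between phases over all 14 arrays, 3 had a single gene name, and none passed in the 14-array fit (adjusted p = 0.409). *DBR1*, the enzyme that opens intron lariats, lay at 6.50 to 6.86 at 0 and 2 min and 5.78 to 6.45 later, and *FMP42*, of unknown function, at 8.89 to 9.40 and 8.07 to 8.85. *COS4*, of a family of similar genes that can share probes, was higher later (9.55 to 10.07 against 9.06 to 9.54). All of them were picked out once their values were known.

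The Nmd+ strain was put through the same 5 times, with 15 arrays and its 10 min array of course 1. In the Nmd+ fit 142 probe sets were higher at 6 to 10 min (1.53%) and 221 lower (2.38%), and without 8 min 48 (0.518%) and 50 (0.539%). Its median change was 0.49 for the general stress genes, 0.19 for heat shock genes, 0.91 for sulfate genes, -0.43 for ribosome biogenesis genes and -0.05 for cytosolic ribosomal protein genes. The difference between strains in the phase change, tested over 29 arrays, gave 0 calls in each direction (0.0%), with 729 probe sets at an unadjusted p under 0.05 and a smallest adjusted p of 0.619. On the course differences 8 probe sets were called higher in Nmd- (0.0863%) and 1 lower (0.0108%). The lower one was *DBP3*, and among the higher ones only that of *SPG4* had a single gene name. A fit of the strain difference without 8 min in both strains, chosen once the data had been seen, called 232 higher (2.5%) and 346 lower probe sets (3.73%). Of these, 207 and 324 were also called in Nmd- alone without 8 min.

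In that added fit the strain difference was called for 22 of 53 general stress, 10 of 31 heat shock, 63 of 149 ribosome biogenesis, 11 of 51 polymerase I and III and 45 of 106 cytosolic ribosomal protein probe sets, each in the direction of the Nmd- change. *SSA4* in Nmd+ was 8.85 to 9.90 at 6 min and 9.15 to 9.40 at 10 min against 8.44 to 9.94 at 0 and 2 min, so its phases overlapped. Without 8 min it changed by 0.40 in Nmd+ (adjusted p = 0.383), and the strain difference was 2.48 (adjusted p = 0.000212). *NSR1* in Nmd+ was 9.01 to 10.55 at 0 and 2 min and 7.87, 8.84 and 9.28 at 10 min and changed by -0.86 without 8 min (adjusted p = 0.15), and its strain difference was -2.93 (adjusted p = 0.00488). *ASI3*, of the inner nuclear membrane, rose 2.71-fold in Nmd- without 8 min and changed by 0.05 in Nmd+ likewise without 8 min, a strain difference of 1.39 (adjusted p = 0.000791). Among sulfate genes the strain difference was called in 2 of 27 probe sets, with *SUL1* at 2.09 (adjusted p = 0.00962) and *MET10* at 0.47 (adjusted p = 0.457). For *CTR1* and *TIS11* the strain difference was 0.85 and 0.40 and did not pass (adjusted p = 0.58 and 0.853), and *CLN2* changed by -0.68 in Nmd+ without 8 min (adjusted p = 0.0479) with a strain difference of -0.37 (adjusted p = 0.488).

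Some strain differences rested on the Nmd+ arrays. *SUP35* in course 3 of Nmd+ was 5.74 at 0 min and 4.52 at 2 min, where all other Nmd+ arrays of these times lay at 8.08 or above. *RPL37B* was 9.84 and 9.36 in the same arrays, against 11.97 to 12.52 in the others, and *YER186C*, of unknown function, was 6.03 and 5.50 against 6.87 to 7.84. The strain differences of these 3 genes without 8 min were -1.89 (adjusted p = 0.111), -1.82 (adjusted p = 0.0269) and -1.32 (adjusted p = 0.017). *GZF3*, a GATA factor of nitrogen regulation, was called with a strain difference of 1.57 (adjusted p = 0.0197), and in Nmd- its 0 min arrays (5.49, 4.79 and 5.72) lay below every Nmd+ array of the same times (5.87 to 7.30).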

How the data were processed

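RNA of the 2 strains was hybridized to 96 Affymetrix YG-S98 arrays after hot phenol extraction, oligo(dT) priming and biotin labelling. The authors' deposited values are log2 probe set levels from RMA, computed together over all arrays, which makes arrays alike in overall level. Their methods name natural logs of the probe signals, but the highest value, 14.16, exceeds the natural log of a 16-bit intensity (11.09), so the values were read as log2. The deposited experiment files gave only the chip lot and the order of scanning. Arrays were grouped by title, since the source names call both strains *upf1*- and some give another time.

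A total of 9275 probe sets was tested after 60 control probe sets were left out. Of these, 6504 had 1 gene name in the platform annotation, 328 several and 2443 none. The 6, 8 and 10 min arrays were compared with 0 and 2 min in limma 3.58.1 (R 4.3.3) with the course as a block and Benjamini-Hochberg adjustment, and a call needed an adjusted p under 0.05 and 1.5-fold. Array deviations correlated within a replicate number (r = 0.63, 0.54 and 0.58 in Nmd-, 0.71, 0.41 and 0.58 in Nmd+), so the numbers pair the samples, as the study's independent courses also do. The test on course differences took 1 value for each course. No arrays were duplicates (highest correlation 0.9932). Their number limits the precision. In the fits across arrays the course levels are removed, so the p-values rest on the scatter of arrays within courses. Several times of a course count there as repeats of a phase. Only the test on course differences measures the spread between the 3 courses.

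The 35 gene lists and the arrays were chosen with earlier results of these data known. The text names genes from the 4 with the smallest adjusted p in each list and the 6 in each direction of the strain difference. *HSP26*, *SPG4*, *RGI1*, *HSP30*, *GRE1*, *ADH7*, *TIS11*, *NSR1*, *DBP3*, *NIP7*, *SUP45* and *ASI3* were added with their values known. Promoter sequences were not used here. Scripts were tested on simulated data.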

Additional observations from a re-analysis of the deposited data

Results flagged for a closer look

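Of 162 groups of arrays examined, 1 for each named gene and phase, 7 held 1 array far from the rest, where chance gives about 1 in 20. At 2 min in course 1, *UPF1* was 3.81 (2.30 to 2.74 in the other 0 and 2 min arrays), *NSR1* 7.91 (9.74 to 10.79), *POL1* 5.32 (6.38 to 6.91) and *MTR3* 5.15 (6.09 to 6.62). *TIF35* was 10.57 at 2 min in course 2 (9.80 to 10.02). Among the 6, 8 and 10 min arrays, *HSP12* was 8.04 at 8 min in course 2 (10.76 to 12.74), and *YER186C* was 8.43 at 8 min in course 3 (7.69 to 7.94). These arrays entered every fit except those said to leave them out.

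The phase change differed between strains for 9 probe sets when each course was reduced to a single difference (n = 3 for each strain). *SPG4* differed by 1.502 (SE 0.19, adjusted p = 0.0322 in limma), with 2.15 in Nmd- and 0.65 in Nmd+. *DBP3* differed by -1.39 (SE 0.19, adjusted p = 0.0403), with -1.79 in Nmd- and -0.40 in Nmd+. The other 7 carry no single gene name, which can mean several names or none, and their differences were 2.22, 2.20, 1.78, 1.67, 1.64, 1.53 and 1.51. Over all 29 arrays none of the 9 passed.

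The array titled Nmd- 10 min of course 1 entered no test except the alternative that adds it. Its *UPF1* signal of 5.89 lay above the range of the 14 arrays (2.30 to 3.81). The arrays titled 40, 45 and 50 min of the same course also carried the strain markers of Nmd+.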

How the results depend on the processing

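The 0 calls in the 14-array fit remained 0 in both directions without the replicate block, without any single array, without any course, without 0, 2, 6 or 10 min, with scan period or chip lot as a further block, within scan period 1 or 2, with other centring, filters, moderation or fold minimum, with values read as natural logs and with the 10 min array of course 1 added. The settings that moved them were the replicate block by course differences (425 higher, 531 lower), leaving out 8 min (700 and 838) and 3 chosen once the data had been seen, namely course differences without 8 min (627 and 787), a mean for each time (428 and 594) and leaving out 2 and 8 min (942 and 1155). The strain difference, with 0 calls over 29 arrays, had 9 by course differences and, in 2 fits also chosen once the data had been seen, 252 by course differences without 8 min and 578 without 8 min. The other strain settings gave 0. The fit without 8 min was used for most sizes above because of the values at 8 min, so its calls are not independent of them. Since 0 min of course 1 was scanned in another period, the fit within scan period 1 sets its 2 min array against its 6 and 8 min arrays. There *RGI1* (-0.0145), *HSP30* (-0.80), *TIS11* (-0.61), *CTR1* (-0.67), *HIS1* (0.0347), *POL1* (0.0845), *CYB5* (0.34) and *NMD2* (0.12) turned direction, and without 0 min *ATG41* (-0.066) and *TIS11* (-0.10) did. The cause was not tested. The other named genes kept their direction in these settings, while at 8 min alone against 0 and 2 min 32 of 79 had the opposite sign to the 14-array change. Of 79 named genes, 67 passed by course differences and 71 without 8 min. Centring on reference probe sets moved the median of all probe sets to -0.31, so rises are smaller and falls larger on that scale.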
